A study of Mus musculus with 36 samples.

Results

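Spleens with a low level of Adamdec1 transcript were compared with spleens with a high level. The level was that of the only Adamdec1 probe set on the array, written as log2 of the deposited intensity plus 16, and an array at 8.5 or above on this scale was called high. By this rule 27 of 36 arrays were high and 9 of 36 were low. Each array held RNA from the spleen of 1 F2 mouse at 4 months of age, from a cross in a study of arthritis in mice deficient for the interleukin 1 receptor antagonist, the secreted protein that blocks the interleukin 1 receptor. The labels name 18 arthritic and 18 non-arthritic mice, with the genotype, parental strains and sex of single mice not given, and they name no treatment. The design text opens with another number of mice than the 18 and 18 that it then gives, and the labels hold 36 arrays.

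Adamdec1, also called decysin, is a secreted metalloprotease related to the ADAM family, made by macrophages and mature dendritic cells. Its gene lies beside Adam28 and Adam7 on mouse chromosome 14. In an F2 cross, long stretches of a chromosome pass from the grandparents together, so that mice alike at 1 gene tend to be alike at the genes around it. For that reason the genes of chromosome 14 were counted apart from the others. The mice's genotypes were not measured in the data used here.

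The Adamdec1 level itself chose the arrays, so its values are a description. In the low spleens it ran from 4.76 through a median of 6.16 to 7.48 on the log2 scale, which is an intensity of 11.1 to 163.1. The low arrays from the lowest up were non-arthritic 11 at 4.76, non-arthritic 9 at 5.77, non-arthritic 1 at 5.87, arthritic 13 at 5.98, non-arthritic 10 at 6.16, non-arthritic 5 at 6.19, non-arthritic 13 at 6.34, non-arthritic 8 at 6.95 and non-arthritic 4 at 7.48. All but 1 of them were from non-arthritic mice. In the high spleens the level ran from 9.44 through a median of 10.53 to 11.72, an intensity of 678.5 to 3356. The classes did not touch: the highest low array was non-arthritic 4 at 7.48 and the lowest high array was non-arthritic 7 at 9.44. The means were 6.17 ± 0.76 (SD, n = 9) in the low spleens and 10.73 ± 0.63 (SD, n = 27) in the high ones. The low mean lies below 6.49, the lowest mean level kept by the filter on dim probe sets, so no fold is given.

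Within the classes there were smaller gaps. The high arrays had one of 0.475 between 10.91 in arthritic 10 and 11.39 in non-arthritic 3 and one of 0.474 between non-arthritic 7 and non-arthritic 12, and the low arrays had gaps of up to 1.01, beside 1.95 between the classes. Above 10.91 lay 8 arrays, here called the top level, with Adamdec1 between 11.39 and 11.72, and below it 19 arrays, the middle level, between 9.44 and 10.91. This further division was made after the values were seen, at a gap no wider than others within the classes, and was given no test.

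**Figure D1:**
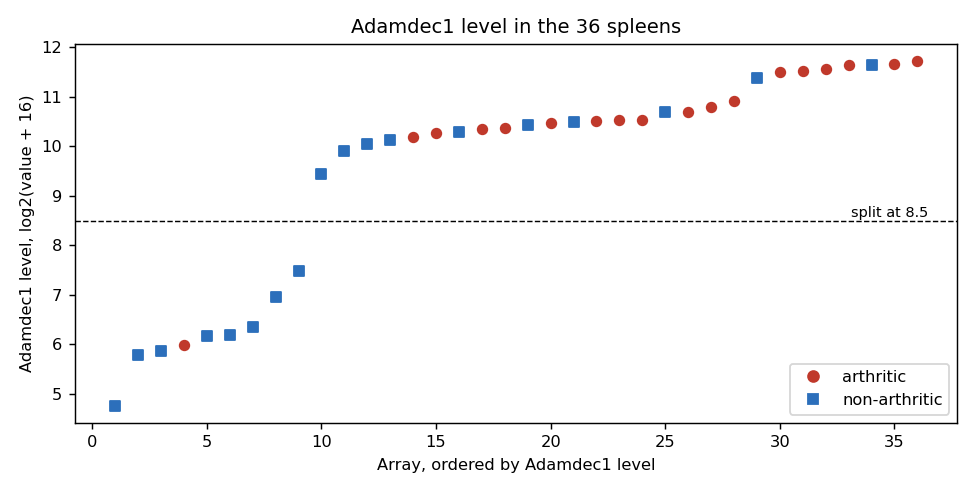
Adamdec1 level of each of the 36 arrays on the log2(value + 16) scale, in order of level, coloured by the arthritis label. The 9 low arrays end at 7.48 and the 27 high arrays begin at 9.44, and smaller steps lie within both classes.

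The arthritis label, which the rule did not use, was unevenly spread over the classes. Of the 9 low spleens 1 was from an arthritic mouse and 8 were from non-arthritic mice, so 11.1% were arthritic, whereas 17 of the 27 high spleens, or 63.0%, were arthritic (Fisher's exact test, two-sided, p = 0.0178, odds ratio 12.7 with a 95% interval of 1.37 to 636). Adamdec1 was chosen from several genes already known to divide these mice, and this p is not adjusted for that choice. Over the 3 levels the arthritic share was 11.1% in the low, 57.9% in the middle and 75% in the top arrays. The arrays fell into 3 groups by the signal of the hybridisation controls that are spiked into each sample, called batches A, B and C here, a division made from the control values and not named by the labels. In batch A the low arrays were 0 arthritic and 2 non-arthritic and the high ones 9 and 2 (Fisher's exact p = 0.0769). In batch B they were 0 and 3 against 6 and 7 (Fisher's exact p = 0.25), and in batch C 1 and 3 against 2 and 1 (Fisher's exact p = 0.486). The arthritic share was thus lower among the low arrays in all 3 batches, and in none of them did the test alone pass 0.05. In batches A and B no low array was arthritic, which is the most uneven split in this direction. With so few low arrays the test could not pass 0.05 in this direction there, so not passing tells nothing in those batches.

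The same relation can be read from the level. The mean Adamdec1 level of the 18 arthritic spleens was 10.62 ± 1.28 (SD) and that of the 18 non-arthritic spleens was 8.55 ± 2.29 (SD). The arthritic mean lay 2.07 log2 units higher (SE 0.58), and in limma's fit across all probe sets this did not pass after Benjamini-Hochberg adjustment (adjusted p = 0.0959). In that fit 13 probe sets passed (0.0481%) and 4249 were at an unadjusted p under 0.05 (15.7%). Blocking on the spike-in batch gave 2.08, with a limma adjusted p of 0.178. Leaving out non-arthritic 2 gave 2.18 with a limma adjusted p of 0.0465, which is past the threshold of 0.05. These are the values that formed the classes, so they are no evidence beside the count of arthritic mice by class.

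Each array had been scaled to a trimmed mean of 500.0, while the median intensity of an array ran from 110.6 to 183.2. Depth in the sense of read counts does not apply: the number of arrays limits the precision. The 9 low arrays fell 2, 3 and 4 to batches A, B and C, which held 13, 16 and 7 arrays (Fisher's exact p = 0.124). The ratio of the 3' to the 5' Gapdh control probe sets, a sign of RNA integrity, was 0.924 ± 0.140 (SD, n = 9) in low and 0.884 ± 0.136 (SD, n = 27) in high spleens. Transcripts of the acinar pancreas were high on 1 low array (non-arthritic 5) and 2 high arrays (arthritic 8 and non-arthritic 6). The main counts without these 3 arrays are given below. The labels do not say whether any mice shared a litter or cage, so the p-values measure the spread between these mice.

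Outside Adamdec1 few probe sets separated the classes. Of 27021 probe sets tested with limma, with the arthritis label as a term, 3 passed a Benjamini-Hochberg adjusted p of 0.05, which is 0.0111% of them. Of these 2 were higher in the high spleens (0.0074%) and 1 was lower (0.0037%), and every gene the annotation gives for them lies on chromosome 14. Of the probe sets listed for a single gene, 2 of 775 on chromosome 14 passed (0.258%) and 0 of 21770 elsewhere (0%). At an unadjusted p under 0.05 there were 1529 probe sets (5.66%), 809 higher in the high spleens (2.99%) and 720 lower (2.66%), of which 92 were on chromosome 14 (11.9% of the 775) and 1173 elsewhere (5.39% of the 21770). By a Wilcoxon rank-sum test on each probe set, which has no arthritis term, 1 probe set passed and 2073 were at an unadjusted p under 0.05. Without the 3 arrays with pancreas transcripts, 2 probe sets passed in limma and 1931 were at an unadjusted p under 0.05. No tested probe set had high and low arrays without overlap (0 of 27021, 0%). The array measures RNA from whole spleen, where fewer cells of a type and less RNA per cell cannot be told apart.

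The smallest p belonged to probe set 1441604_at, which the annotation lists for several genes, all on chromosome 14, so no gene is named for it. In the low spleens its level ran from 5.88 through a median of 6.39 to 7.18, and in the high spleens from 6.52 through 7.75 to 8.47. Of the low arrays 5 lay below every high array, and 23 of the 27 high arrays lay above every low one. The high spleens were 1.32 log2 units higher (SE 0.20, 2.50-fold, limma adjusted p = 0.0022). This was the probe set that passed by the exact rank-sum test (adjusted p = 0.0385). Its low mean of 6.51 lies close to 6.49, the lowest mean level kept by the filter. The size of the difference, and so the fold, therefore depends on the pseudocount, the number added to each intensity. The difference was 1.49 with a pseudocount of 1 and 0.98 with 64, and passed in limma with both (adjusted p = 0.0016 and 0.0051).

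Rgcc, a regulator of the cell cycle that binds Cdk1, had the next smallest p through probe set 1438511_a_at. Its level ran from 7.29 through 7.78 to 8.42 in the low spleens and from 7.29 through 8.97 to 9.90 in the high ones. There were 23 high arrays above every low array, while the lowest high array lay just below the low range. The difference was 1.45 (SE 0.24, 2.73-fold, limma adjusted p = 0.0050), and by the exact rank-sum test it did not pass (adjusted p = 0.0896). A second, brighter probe set of Rgcc, 1418003_at, pointed the other way: it ran from 10.28 through 10.74 to 10.87 in the low spleens and from 8.76 through 9.88 to 10.83 in the high ones, differing by -0.53 (SE 0.19) that did not pass (limma adjusted p = 0.854). The 2 probe sets of this gene therefore disagree in sign, and neither can stand for the gene's total transcript.

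Mtmr9, a myotubularin without phosphatase activity that binds active members of its family, was lower in the high spleens by probe set 1434676_at. The level ran from 9.70 through 10.32 to 10.49 in the low and from 9.09 through 9.73 to 10.08 in the high spleens, with 7 of the 9 low arrays above every high array. The difference was -0.64 (SE 0.12, limma adjusted p = 0.0369). The call was near the threshold: it held in 24 of 36 fits that each left out 1 array, and blocking on the spike-in batch gave -0.59 with a limma adjusted p of 0.205. The exact rank-sum test gave an adjusted p of 0.0896. Both other Mtmr9 probe sets had the same sign, with 1455058_at at -0.76 (SE 0.15, limma adjusted p = 0.0783) and 1452254_at at -0.46 (SE 0.11, limma adjusted p = 0.496). By 1455058_at, again, 7 of the 9 low arrays lay above every high array.

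Below the called probe sets came 5 whose limma adjusted p was between 0.0783 and 0.109, of which 1 is Mtmr9 1455058_at and 3 others belong to named genes of chromosome 14. Bora, the cofactor with which Aurora A activates Plk1 as cells enter mitosis, had by probe set 1429478_at a level from 5.83 through 6.37 to 7.11 in the low spleens and from 6.14 through 8.43 to 9.81 in the high ones. Its difference of 1.88 (SE 0.38, limma adjusted p = 0.0783) did not pass, and 22 high arrays lay above every low array. The low mean of 6.37 lies under the lowest mean level kept by the filter, 6.49, so this probe set was tested through its level in the high spleens, and the size of its difference is set against a dim signal. The brighter Bora probe set, 1433807_at, differed by only 0.12 (SE 0.16, limma adjusted p = 0.963). Mzt1, a small protein of the gamma-tubulin ring complex that nucleates microtubules, is the gene next to Bora. By probe set 1434664_at it ran from 7.85 through 8.68 to 9.60 in the low and from 8.74 through 9.75 to 10.70 in the high spleens, differing by 1.03 (SE 0.22, limma adjusted p = 0.109). Its other probe sets had the same sign with smaller values, 0.38 (SE 0.11) for 1455052_a_at and 0.30 (SE 0.14) for 1434663_at.

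Dok2, an adaptor that restrains tyrosine kinase signalling in blood cells was next, by probe set 1416333_at. Its level ran from 8.76 through 9.54 to 10.02 in the low spleens and from 9.65 through 10.44 to 11.30 in the high ones, with 6 of 9 low arrays below every high array. The difference was 0.82 (SE 0.17, limma adjusted p = 0.0853). The last, 1456449_at, is listed for no gene. It ran from 6.12 through 7.02 to 8.99 in the low and from 6.07 through 8.18 to 9.18 in the high spleens, differing by 1.26 (SE 0.26, limma adjusted p = 0.0853).

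**Figure D2:**
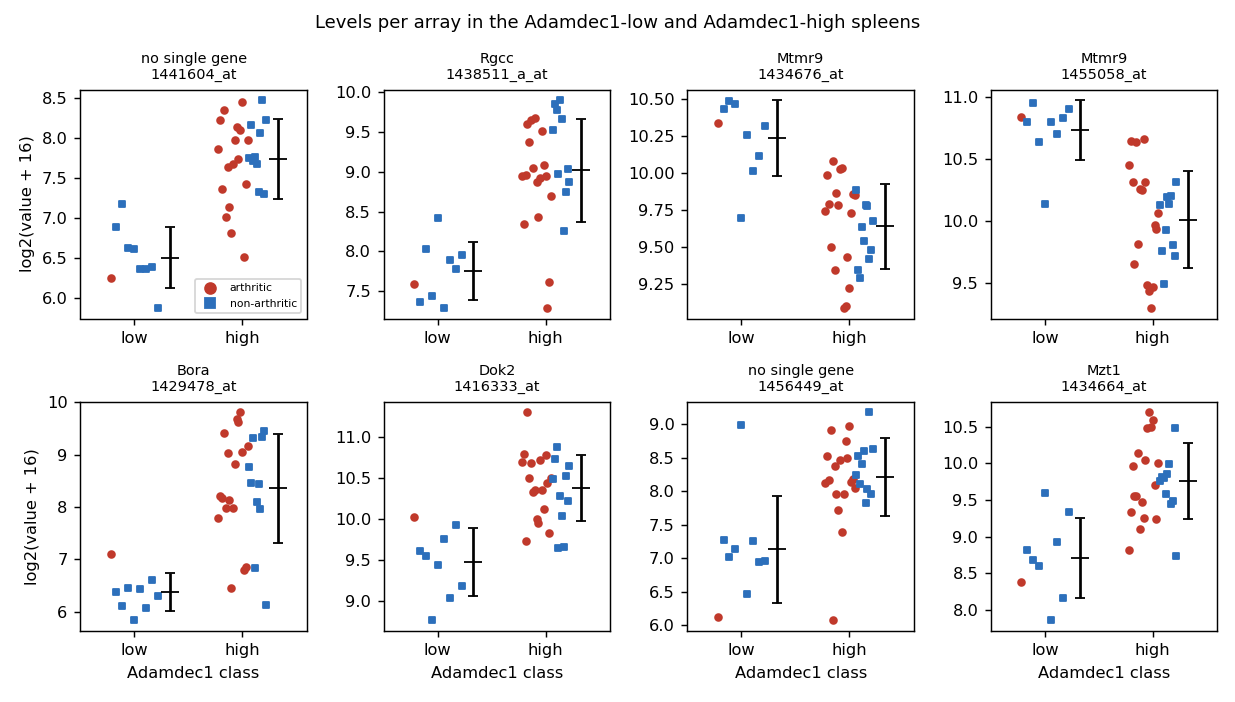
Level of each leading probe set on the log2(value + 16) scale in the 9 low and 27 high arrays, with each point an array coloured by the arthritis label and bars for the mean and SD. The groups overlap in every panel, and Mtmr9 is the gene that is lower in the high arrays.

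Promoter sequence was at hand in RefSeq for 2 of the 6 leading genes, Rgcc and Mzt1, and is shown because both stood among the leading genes of chromosome 14. Each window is the 250 bases before the annotated start on the minus strand of GRCm38.p6, at chr14:79301636-79301885 for Rgcc and chr14:99046137-99046386 for Mzt1, read 5′ to 3′. Capitals mark TATAA in Rgcc, and CCAAT and TTCAAA in Mzt1, the last being the reverse complement of TTTGAA, the letters of the CHR element of cell cycle genes.
Rgcc: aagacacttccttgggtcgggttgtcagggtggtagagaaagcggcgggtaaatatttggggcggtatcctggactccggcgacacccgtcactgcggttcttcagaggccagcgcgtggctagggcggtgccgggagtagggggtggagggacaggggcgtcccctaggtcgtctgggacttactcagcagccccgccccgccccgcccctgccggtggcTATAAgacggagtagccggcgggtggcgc
Mzt1: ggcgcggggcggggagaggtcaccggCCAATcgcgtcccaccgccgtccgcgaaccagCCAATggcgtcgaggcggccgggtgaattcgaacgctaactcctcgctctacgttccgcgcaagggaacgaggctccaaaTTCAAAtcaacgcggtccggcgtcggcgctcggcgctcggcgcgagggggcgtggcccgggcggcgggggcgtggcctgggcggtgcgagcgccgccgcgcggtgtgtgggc
The TATAA of Rgcc begins 29 bases before the start, at -29. The CCAAT letters of Mzt1 begin at -224 and -192 and the TTCAAA at -112, and the first 10 bases of its window lie inside the annotated span of Bora. Searched on both strands of 32851 such windows, CCAAT is found in 33.8%, TTTGAA in 16% and TATAA in 22.8%, so each of these matches is common. The windows hold 66.8% G or C in Rgcc and 74.0% in Mzt1. No binding was measured at these sites.

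Along chromosome 14 the genes at an unadjusted p under 0.05 lay along the whole of it. Each gene was represented by its brightest probe set, and on that basis no gene passed the adjusted threshold. By this count 53 of 427 genes of chromosome 14 were at an unadjusted p under 0.05, or 12.4%, beside 688 of 12426 genes in all (5.54%). On the other chromosomes the share ran from 2.67% on X to 7.06% on chromosome 5. Under an unadjusted p of 0.001 there were 4 genes on chromosome 14 and at most 1 on any other chromosome. Among the protein-coding genes, ordered from Adamdec1, 10 of the 50 nearest (25 on each side) were under 0.05 (20%), 15 of the next 100 (15%) and 27 of the remaining 260 (10.4%). Of the 52 in all, 24 were higher and 28 lower in the high spleens. In the non-arthritic mice alone the shares were 10%, 11% and 6.15%, so the nearest genes did not have the largest share there, beside 4.00% of the genes on other chromosomes.

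**Figure D3:**
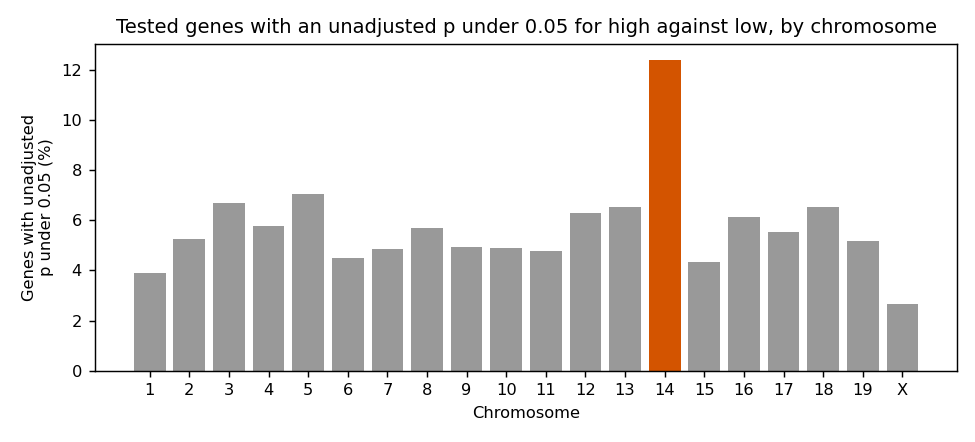
Share of tested genes, in percent, with an unadjusted p under 0.05 for high against low arrays, by chromosome. Chromosome 14 has 12.4%, and the other bars lie between 2.67% and 7.06%.

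None of the immediate neighbours of Adamdec1 that could be tested passed. Adam28 and Adam7, its relatives on either side, were below the filter on low signal: Adam28 ran from 4.59 through 5.79 to 6.55 in the low and from 4.39 through 5.53 to 6.88 in the high spleens, and Adam7 from 4.41 through 5.66 to 6.47 and from 4.21 through 5.16 to 6.42. The neurofilament genes Nefl and Nefm were below the filter too. Of the 10 nearest measured genes, 5 on each side, 6 were tested: Kctd9 differed by 0.07 (SE 0.11), the guanine nucleotide exchange factor Dock5 by -0.07 (SE 0.10), the hormone gene Stc1 by -0.25 (SE 0.22), the homeobox gene Nkx2-6 by -0.04 (SE 0.34), the mitochondrial iron importer Slc25a37 by 0.02 (SE 0.13) and R3hcc1 by 0.07 (SE 0.15). None of these had an unadjusted p under 0.05. The leading genes lay farther out, with Mtmr9 at gene 42 on the lower side and Dok2 at 31, Rgcc at 68, Mzt1 at 86 and Bora at 87 on the higher side, counted over genes with a probe set.

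**Figure D4:**
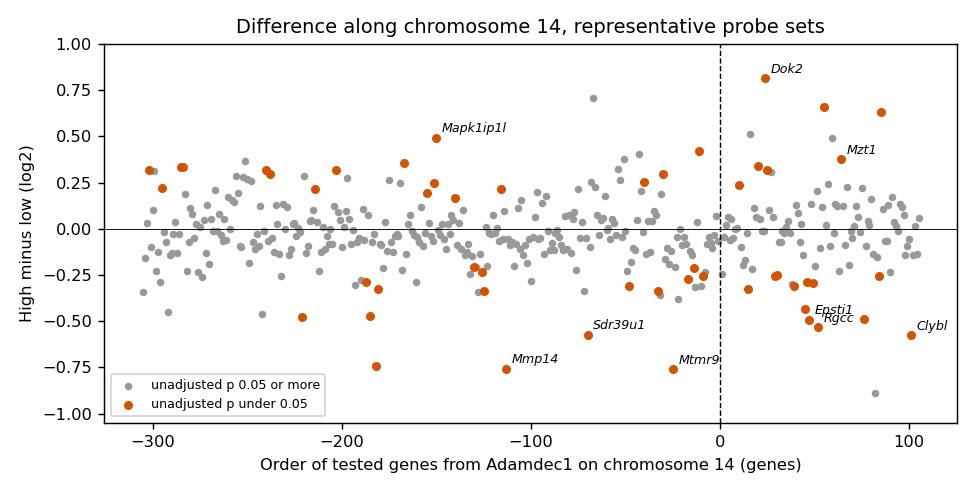
High minus low difference on the log2 scale for the brightest probe set of each tested protein-coding gene of chromosome 14, against its order from Adamdec1. Orange points have an unadjusted p under 0.05 and the dashed line marks Adamdec1. Mtmr9 at -0.76 and Dok2 at 0.82 lie on either side of it.

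Further genes of chromosome 14 had small unadjusted p-values without passing the adjusted threshold, and were picked for that after their values were seen. Mapk1ip1l differed by 0.49 (SE 0.12, limma adjusted p = 0.375), Eaf1, a partner of the ELL elongation factors, by 0.32 (SE 0.10) and Wdfy2, an endosomal protein, by 0.30 (SE 0.09). On the other side of 0 were Sdr39u1 at -0.57 (SE 0.15), the mitochondrial enzyme gene Clybl at -0.58 (SE 0.17), Akap11, an anchor of protein kinase A, at -0.30 (SE 0.09), the mitochondrial co-chaperone gene Dnajc15 at -0.29 (SE 0.09) and the interferon-induced gene Epsti1 at -0.49 (SE 0.15). The largest difference among them was 1.57 (SE 0.46) for 4931406H21Rik, whose arrays overlapped widely. In the spike-in batches A, B and C it was 1.65, -0.27 and 1.16, so its sign turned in batch B, and that of Sdr39u1 turned in batch A (0.04, with -0.52 and -0.48 in the others). Dnajc15, Epsti1 and Akap11 lie within 5 places of each other in the gene order, at 60, 61 and 64 from Adamdec1.

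The leading probe sets can also be set out by the 3 Adamdec1 levels, as a description: these probe sets were picked for their difference between low and high, so the step from low to middle repeats that difference. Bora by 1429478_at had means of 6.37 ± 0.36 in the low, 7.92 ± 0.92 in the middle and 9.40 ± 0.29 in the top arrays (SD, n = 9, 19 and 8), and Mtmr9 by 1455058_at had 10.73 ± 0.24, 10.20 ± 0.28 and 9.55 ± 0.18. Dok2 went from 9.47 to 10.25 and 10.67, Mzt1 by 1434664_at from 8.71 to 9.59 and 10.15, and 1441604_at from 6.51 to 7.59 and 8.07. With the Adamdec1 level as a number over all 36 arrays in place of the classes, 10 of 27021 probe sets passed in limma (0.037%) and 1656 were at an unadjusted p under 0.05 (6.13%). These were 3 probe sets of Mtmr9, 1 each of Bora, Dok2, Mzt1, Rgcc and Spata13, an exchange factor for small GTPases, all on chromosome 14, and the unnamed 1441604_at and 1456449_at. This fit holds the same split, since most of the spread in the level lies between the classes.

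Within the 27 high arrays alone, which the split between classes does not divide, no probe set passed (0 of 27021, 0%, with 758 or 2.81% at an unadjusted p under 0.05 in limma). The 3 smallest p-values were those of Mtmr9 and Bora. Per log2 unit of Adamdec1, Mtmr9 differed by -0.50 (SE 0.09, limma adjusted p = 0.0602) with 1455058_at and by -0.37 (SE 0.07, limma adjusted p = 0.0602) with 1434676_at, and Bora by 1.25 (SE 0.23, limma adjusted p = 0.0628). Rgcc by 1438511_a_at differed by 0.31 (SE 0.19) in the same fit.

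**Figure D5:**
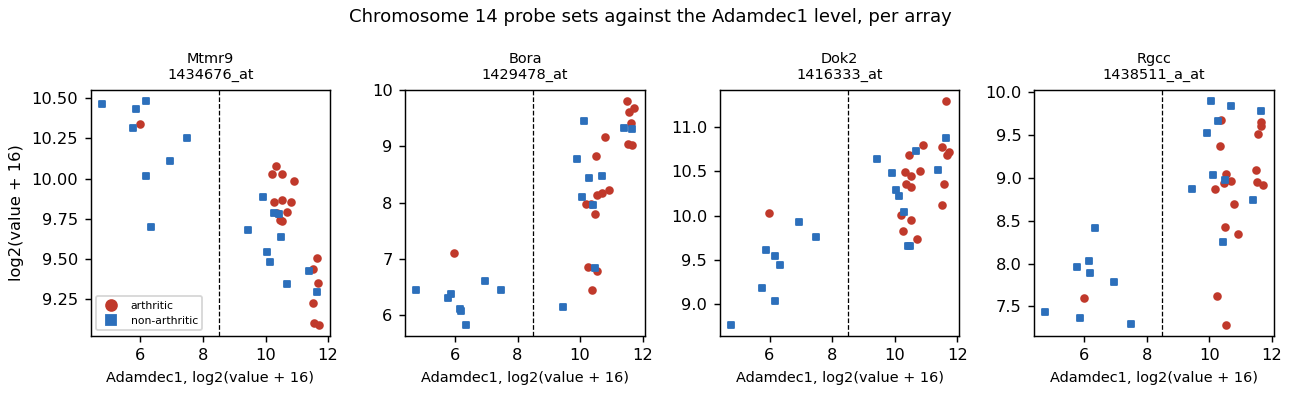
Level of chromosome 14 probe sets against the Adamdec1 level, both as log2(value + 16), with each point 1 of the 36 arrays and a dashed line at the split of 8.5. The 8 top arrays lie at 9.02 or above for Bora.

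In the non-arthritic mice alone, with 8 low and 10 high spleens, 3 probe sets passed in limma (0.0111%): 1441604_at at 1.30 (SE 0.19, adjusted p = 0.0098), Rgcc 1438511_a_at at 1.49 (SE 0.21, adjusted p = 0.0098) and Mtmr9 1455058_at at -0.75 (SE 0.12, adjusted p = 0.0304). At an unadjusted p under 0.05 there were 1113 (4.12%), with 69 of the single-gene probe sets on chromosome 14 (8.9%) and 857 elsewhere (3.94%). These mice are part of the 36, so their values are no separate evidence. Within the spike-in batches A, B and C the high minus low difference of 1441604_at was 1.14, 1.22 and 1.34, that of Rgcc 1438511_a_at was 0.98, 1.46 and 1.61, and that of Mtmr9 1434676_at was -0.65, -0.35 and -0.68. Bora by 1429478_at gave 2.41, 1.73 and 2.29, and Dok2 gave 0.98, 0.71 and 1.13. Each of these 5 probe sets kept its sign in every batch, with 2, 3 and 4 low arrays in them. They were picked for their difference over the same arrays, so the kept sign is no separate evidence either.

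Off chromosome 14, where nothing passed (0 of 21770 probe sets in limma, with 1173 at an unadjusted p under 0.05), the genes with the highest moderated t are given as values. They were Klhl7, a ubiquitin ligase adaptor, at 0.68 (SE 0.16, limma adjusted p = 0.409), Zfand3 at 0.57 (SE 0.14), Cdc23, a subunit of the anaphase-promoting complex, at 0.41 (SE 0.12), Fkbp11, a prolyl isomerase of secretory cells, at 0.45 (SE 0.13) and the nucleolar helicase gene Ddx21 at 0.37 (SE 0.11). The lowest were Champ1 at -0.38 (SE 0.10), the pyrophosphatase gene Ppa1 at -0.31 (SE 0.09), the lipoprotein lipase gene Lpl at -0.54 (SE 0.15), Kctd18 at -0.52 (SE 0.15) and Akap12 at -0.36 (SE 0.10). Their limma adjusted p-values, apart from that of Klhl7, were 0.496 to 0.789.

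No marker of the cells known to make Adamdec1 passed the test, and none of the 12426 genes did by its brightest probe set. A 0 here therefore tells nothing of these cells in particular. Of 15 tested genes of red pulp and marginal zone macrophages 0 passed, 9 were higher in the high spleens, and their median difference was 0.04, beside -0.02 over all 12426 genes. Among them the scavenger receptor Cd163 differed by 0.41 (SE 0.23), Cd5l, a secreted macrophage protein, by 0.41 (SE 0.31), and Spic, the transcription factor of red pulp macrophages, by -0.01 (SE 0.23). Of 14 genes of dendritic cells 0 passed, and the median was -0.14. Batf3, needed for cross-presenting dendritic cells, differed by -0.27 (SE 0.11) and Flt3, a receptor for dendritic cell growth, by -0.22 (SE 0.11), both at unadjusted p under 0.05 only. Monocyte genes had a median of -0.04 with 0 of 12 passing.

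Among the proteases, 0 of 11 genes of the ADAM family passed, beside 0 of 12426 genes in all. Their median was -0.13, and 3 of the 11 were higher in the high spleens. Adam12 differed by -0.40 (SE 0.15) and Adam19 by -0.20 (SE 0.10), while Adam10, a widely expressed sheddase, differed by 0.16 (SE 0.12) and Adam11 by -0.44 (SE 0.24). Of 13 matrix metalloproteinases and their inhibitors 0 passed, with a median of -0.03. Mmp14, a membrane-bound collagenase whose gene is on chromosome 14, differed by -0.76 (SE 0.24, limma adjusted p = 0.789) and Mmp2, which it activates, by -0.27 (SE 0.12).

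No list of cells or pathways had a member past the threshold, and no gene at all passed by its brightest probe set. All 13 neutrophil genes were higher in the high spleens, with a median of 0.23 and differences from 0.06 to 0.37, none at an unadjusted p under 0.05. The neutrophil score of an array, a mean of centred log2 levels with no arthritis term, had medians of -0.02 in the low and -0.05 in the high spleens. It ran from -1.38 to 1.11 in the low and from -1.22 to 1.36 in the high spleens. Of 16 T cell genes 1 was higher, with a median of -0.16, and Cd4 differed by -0.34 (SE 0.16). Of 14 B cell genes 3 were higher, with a median of -0.10, and the immunoglobulin heavy chain gene Ighm differed by -0.29 (SE 0.11). The medians were -0.10 for 12 plasma cell genes, -0.05 for 11 genes of NK and cytotoxic cells, -0.01 for 17 erythroid genes and 0.01 for 25 cell cycle genes. They were 0.01 for 19 genes of the interleukin 1 family, -0.15 for 20 interferon response genes, -0.09 for 11 genes of class II antigen presentation and -0.02 for 6 pancreas genes. The median of 0.07 over 4 sex-linked genes joins Xist with genes of the Y chromosome, so it does not measure sex. Xist differed by -0.07 (SE 0.19), Eif2s3y by 0.30 (SE 0.13), Kdm5d by 0.01 (SE 0.11) and Uty by 0.12 (SE 0.18). Of these Eif2s3y alone was at an unadjusted p under 0.05. The cell cycle genes include Plk1 at -0.04 (SE 0.18) and Aurka at -0.03 (SE 0.18), the kinases that Bora joins.

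Of the lists for other tissues, those of fat and connective tissue had 0 members past the threshold, as no gene passed by its brightest probe set. Over all genes 5589 of 12426 were higher in the high spleens. All 5 tested adipose genes were lower in the high spleens, with a median of -0.79, and Retn at -0.85 (SE 0.41) and Lpl at -0.54 (SE 0.15) were at an unadjusted p under 0.05. The adipose score, a mean of centred log2 levels, had a median of 0.81 in the low and -0.32 in the high spleens. It ran from -0.75 to 1.57 in the low and from -1.0 to 1.52 in the high spleens, so the ranges overlapped though the medians lay apart. In the non-arthritic mice alone the 5 differences ran from -1.56 (SE 0.54) for Adipoq to -0.54 (SE 0.15) for Lpl. Of 16 genes of stroma and endothelium 2 were higher, with a median of -0.15. The stroma score ran from -0.03 to 0.51 in the low and from -0.56 to 0.31 in the high spleens. Whether these tissues had a part in Mmp14, Mmp2 or Lpl was not tested.

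Il1rn, the gene of the interleukin 1 receptor antagonist, ran from 6.16 through 6.63 to 7.62 in the low and from 4.84 through 6.62 to 7.48 in the high spleens, differing by -0.39 (SE 0.25, limma adjusted p = 0.900). These levels lie close to 6.49, the lowest mean level kept by the filter, so the difference is that of a dim signal. The probe set was kept in 43 of 54 alternative settings. None of the other genes known to divide these mice passed, beside 0 of 12426 genes in all by the brightest probe set. H2-Ea differed by 1.02 (SE 0.59), H2-Eb1 by 0.84 (SE 0.54), Mndal by -0.80 (SE 0.90), Gbp2b by -0.13 (SE 0.57), Zfp949 by -0.61 (SE 0.50), Oas1b by 0.57 (SE 0.52) and Exosc1 by -0.58 (SE 0.47), with 0 of 7 passing in limma and none at an unadjusted p under 0.05. H2-Ea, a class II chain, ran from 10.28 to 14.65 in the low and from 10.42 to 14.67 in the high spleens, so that both classes held mice at either end.

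Whether high minus low differed between arthritic and non-arthritic mice was tested by an interaction term, and 110 of 27021 probe sets passed in limma (0.407%), 105 of them with the larger difference in arthritic mice (0.389%) and 5 with the smaller (0.0185%). The arthritic side of this term has only 1 low array, arthritic 13, so the fit assumes that this cell varies like the other groups, and without that array the term cannot be fitted. Neither calls nor values short of the threshold can be read as a difference or a likeness between arthritic and non-arthritic mice. The leading genes had an outlying value on it: Cbx8, a subunit of Polycomb repressive complex 1, was at 4.84 there, beside 7.73 ± 0.27 (SD, n = 17) in the arthritic high, 7.83 ± 0.28 (SD, n = 8) in the non-arthritic low and 7.84 ± 0.29 (SD, n = 10) in the non-arthritic high spleens.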

How the data were processed

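Spleen RNA of 36 mice was measured on 1-colour Affymetrix arrays. The authors deposited linear intensity values from MAS5, per the submitters' processing notes (the sources used here give no version); each array's mean without the top and bottom 2% is 500.0. No scanner files were used here. The values were written as log2(value + 16) without further normalization. Of 45101 probe sets, 64 controls and those with a mean below the 40th percentile were left out, and the probe set of Adamdec1 was kept out of the test, leaving 27021. A probe set's gene came from the platform annotation: 34945 probe sets had 1 gene, 932 several and 9160 none listed. Chromosomes and gene order came from the RefSeq table, where 34741 matched. The files name no genome build, so no coordinates are given for probe sets.

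High minus low was fitted with limma 3.58.1 in R 4.3.3 (lmFit, then eBayes with trend) with the arthritis label as a term, with Benjamini-Hochberg adjustment over 27021 probe sets and a threshold of 0.05; the method was tested on simulated data. A gene was represented by its brightest probe set. Batches were 3 clusters of 18 hybridisation control probe sets. The class, the gene lists and the tests were chosen with earlier results of these data known. The naming rule took genes past the threshold (the 12 largest each way on chromosome 14, 8 elsewhere), otherwise the 5 highest and 5 lowest by moderated t elsewhere, 5 neighbours on each side, Il1rn, Adam7, Adam28, the other dividing genes, up to 4 per list and 5 for the interaction; no gene passed by its brightest probe set, so probe sets that passed and further chromosome 14 genes were named after their values were seen. Alternatives changed the pseudocount, filter, normalization, split, batch, arthritis term and test, and left out each array.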

Additional observations from a re-analysis of the deposited data

Results flagged for a closer look

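Among the 9 low arrays, non-arthritic 13 lay apart from the others at 2 leading probe sets. At 1456449_at it was at 8.99, the highest of the low arrays, with a gap to the next of 0.600 of the group's range. At Mtmr9 1455058_at it was at 10.13, the lowest of them, with a gap of 0.618 of the range. Both are above the critical ratio of 0.493 for 9 values, which chance passes in about 1 in 20 groups. The check was run on Adamdec1 and on many named probe sets, and the ratio is not adjusted for their number. Some such gaps are therefore to be met by chance. In both cases the array lay on the side of the high spleens, though its Adamdec1 level of 6.34 was low. Without it 6 probe sets in place of 3 passed in limma for high against low.

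The high minus low difference itself differed between arthritic and non-arthritic mice for 110 probe sets by the interaction term in limma. The leading genes were Cbx8 with an interaction of 2.88, Rusc1 with 2.82, Ddx49 with 2.44, Abhd10 with 2.28 and Tmem42 with 2.25 log2 units. Each rests on the level of the single arthritic low array, which was 4.84 for Cbx8, 5.38 for Rusc1, 5.08 for Ddx49, 5.63 for Abhd10 and 6.06 for Tmem42. The fit takes the spread of that cell from the other groups. With 1 array there, its values cannot be told apart from a property of that mouse or that array.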

How the results depend on the processing

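The classes were the same with the split at 8.0 or 9.0 and with k-means, so the calls were too. The count of 3 probe sets called (2 on chromosome 14, 0 elsewhere) became 7 and 6 (chromosome 14) without the arthritis term, 10 and 8 with the Adamdec1 level as a number, 0 and 0 with that level within the high arrays, 1 and 0 with the Wilcoxon rank-sum test (2073 at an unadjusted p under 0.05), and 193 and 6, with 165 elsewhere, in arthritic arrays alone, where 1 low array stands against 17. The count on chromosome 14 was 1 without the filter, without the trend, with a block for the spike-in batch and without the 3 arrays with pancreas transcripts. Leaving out 1 array gave 2 to 6 probe sets called, 1 to 5 on chromosome 14 and 0 to 0 elsewhere, with 6 without non-arthritic 13 or non-arthritic 7 and 5 without arthritic 14 or non-arthritic 16. The cause was not tested.

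The replicate numbers are not known to pair mice: same-numbered arrays correlated between -0.233 and 0.469 (median 0.162), 10 of 18 pairs were over 0.1, and 2 arthritic arrays correlated best with their own number. With the replicate block 0 probe sets were called (1610 at an unadjusted p under 0.05 in limma) and 0 on chromosome 14, and arthritic minus non-arthritic for Adamdec1 was 2.07 with a limma adjusted p of 0.0347. Leaving out 1 array gave 1.85 to 2.34 for that difference, with limma adjusted p from 0.0465 to 0.156. The arthritic share differed by 51.9 percentage points, and by 50.4 to 63.0 with 1 array left out (Fisher's exact p from 0.00289 to 0.0178). The interaction called 212 with a pseudocount of 1, and 87 to 137 with 1 array left out. The 122 named results were each fitted under up to 54 settings, and the counts that follow are of result and setting together. None was reversed, a call was lost 28 times and gained 35 times, and an uncalled value changed sign 145 times. The lost calls were 21 of Mtmr9 1434676_at, 4 of Rgcc 1438511_a_at and 3 of 1441604_at.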
